A study of Mus musculus with 16 samples.

Results

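Dividing cortical radial glia were described in single-cell RNA of the mouse forebrain at embryonic day 15.5. All 16 deposited samples carried the same labels: forebrain of wild-type CD1 mice, an outbred laboratory strain, with no treatment, mutation or second condition, prepared with a droplet-based single-cell workflow in which each RNA molecule receives a unique molecular identifier (UMI). The samples were deposited as 1 matrix with no map from cells to samples, so they form 1 pooled sample without replicates. Neither the number of embryos nor their sex is given in the sources used here.

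A cell was counted as a dividing radial glial cell by 4 limits. The radial glia genes Fabp7, Aldoc, Sox9, Slc1a3 and Hopx together held at least 0.35% of its UMIs. Dlx1 and Dlx2, genes of ventral progenitors and interneurons, together had at most 1 UMI, and Eomes, the transcription factor of cortical intermediate progenitors, had at most 1 UMI. The mitotic genes Top2a, Mki67, Ccnb1, Nusap1, Prc1, Kif11, Aurkb, Ccna2, Cenpf and Tpx2 together had at least 3 UMIs. These limits were met by 326 of 5777 cells, which is 5.64% of all cells (95% Clopper-Pearson interval 5.06 to 6.27%, counting error only).

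Radial glia are the stem cells of the embryonic cortex. Their nuclei move within the ventricular zone during the cell cycle and reach the ventricular surface for mitosis, where the orientation of the spindle bears on how the apical membrane is shared between the daughter cells. Their divisions renew the radial glia and give rise to Eomes-positive intermediate progenitors and to neurons. In the cycle, S-phase genes are switched on largely through E2F factors, while genes of G2 and mitosis are held back in resting cells and later induced by complexes that bind the cell cycle genes homology region (CHR) and, through NF-Y, the CCAAT box.

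Promoters of 4 of the mitotic genes that chose the cells are shown, and each of the 4 holds the letters of both elements. Sequences are from the RefSeq promoter table of build GRCm38.p6, from 250 bases before to 50 bases after the start of the gene, and 7 of the 10 mitotic genes had an entry. The 4 genes with an entry that had the most UMIs in dividing radial glia are given 5′ to 3′ on the gene's own strand. Top2a encodes the topoisomerase that untangles sister DNA and lies on the minus strand at chr11:99024140-99024439. Prc1 encodes a bundler of the central spindle, on the plus strand at chr7:80294201-80294500. Ccnb1 encodes cyclin B1, the partner of Cdk1 at mitotic entry, on the minus strand at chr13:100786437-100786736. Mki67 encodes the chromosome surface protein Ki-67, on the minus strand at chr7:135716330-135716629. Capitals mark a CHR or a CCAAT box on either strand. A CHR was searched for with the letters TTTGAA and also with the letters TTTAAA. An E2F site was searched for with the letters TTTCCCG and also with the letters TTTGGCG.
Top2a: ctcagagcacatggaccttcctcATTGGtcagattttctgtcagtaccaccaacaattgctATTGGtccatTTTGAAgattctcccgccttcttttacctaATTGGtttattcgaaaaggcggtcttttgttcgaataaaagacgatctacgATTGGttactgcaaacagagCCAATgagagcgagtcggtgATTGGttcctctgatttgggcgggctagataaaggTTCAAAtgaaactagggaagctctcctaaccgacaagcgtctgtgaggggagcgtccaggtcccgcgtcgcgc
Prc1: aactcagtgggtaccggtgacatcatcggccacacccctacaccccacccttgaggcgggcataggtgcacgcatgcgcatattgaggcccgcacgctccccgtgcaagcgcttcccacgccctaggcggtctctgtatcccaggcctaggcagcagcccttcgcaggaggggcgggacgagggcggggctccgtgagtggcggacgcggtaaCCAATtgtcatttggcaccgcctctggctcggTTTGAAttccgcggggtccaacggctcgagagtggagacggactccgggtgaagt
Ccnb1: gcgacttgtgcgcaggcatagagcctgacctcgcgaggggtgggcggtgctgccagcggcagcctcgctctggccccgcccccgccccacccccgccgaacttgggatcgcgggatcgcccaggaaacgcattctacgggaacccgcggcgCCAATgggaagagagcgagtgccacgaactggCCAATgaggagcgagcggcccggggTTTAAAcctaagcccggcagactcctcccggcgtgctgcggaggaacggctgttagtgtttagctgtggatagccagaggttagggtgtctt
Mki67: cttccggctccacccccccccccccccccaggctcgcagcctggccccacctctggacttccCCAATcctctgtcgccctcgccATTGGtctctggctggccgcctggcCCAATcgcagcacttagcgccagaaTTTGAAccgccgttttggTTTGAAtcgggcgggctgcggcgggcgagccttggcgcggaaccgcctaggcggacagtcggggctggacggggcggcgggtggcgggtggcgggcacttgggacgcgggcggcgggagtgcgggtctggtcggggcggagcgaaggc
The Top2a window held 2 CHR matches and 6 CCAAT boxes, the Mki67 window 2 and 3, the Ccnb1 window 1 and 2, and the Prc1 window 1 of each. No E2F match of these letters lay in any of the 4 windows. A CHR was found in 6 of the 7 mitotic genes with a promoter, in 33 of 42 promoters of 48 other G2/M genes (78.6%), in 7 of 31 promoters of 43 S-phase genes (22.6%) and in 27.8% of all 27025 promoters. A CHR together with a CCAAT box was found in 61.9% of the other G2/M promoters, 19.4% of the S-phase promoters and 10.9% of all promoters. The E2F letters were found in 38.7% of the S-phase promoters, 11.9% of the other G2/M promoters and 4.98% of all promoters. A CCAAT box, with or without a CHR, was found in 76.2% of the other G2/M promoters, 71.0% of the S-phase promoters and 37.9% of all promoters. A match is a run of letters and not a measured site.

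The whole matrix held 14498 genes and 21609944 UMIs, with 1111 to 17398 UMIs per cell and a median of 3258. It was split into 2 runs of cells in file order. The first run, 3651 cells, ends with the last cell that has a UMI of a Y-linked gene. The second run, 2122 cells, starts with the first cell that has a UMI of 11 genes listed last in the matrix. Between them lie 4 cells that belong to neither. By this definition the first run holds all 1363 Y-linked UMIs and the second holds none. The labels name no such split, and its source was not tested. Values are given by run for some genes and lists only. A ratio printed without run values is not shown to be alike in both runs. Dividing radial glia made up 189 cells of the first run (5.18%) and 137 cells of the second (6.46%).

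Among dividing radial glia the count of mitotic UMIs had a median of 13.5 and a maximum of 81, and 200 cells had more than 10. Just inside the limit, 24 cells had 3 mitotic UMIs and 20 had 4. Just outside it, 45 radial glia had 2 and 72 had 1, and 137 had 0. On the radial glia limit, 56 dividing cells had a share of 0.35 to 0.45% and 61 other dividing cells had 0.25 to 0.35%. The limits are thus steps on continuous ranges. Dividing radial glia had a median of 4195.5 UMIs and 2185.5 genes per cell, against 2851 UMIs and 1625 genes in radial glia with 0 mitotic UMIs. Depth therefore moved with the count of mitotic UMIs, and its part in the results was not tested beyond the depth-matched values given below.

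The cortical part of the name was checked against marker genes, with Dlx genes left out of the ventral ones because the rule limits them. Summed over 8 markers of dorsal progenitors, dividing radial glia had 4361 CPM (the UMIs of a gene or list per 1000000 UMIs of the class). Radial glia with 0 mitotic UMIs had 4238 CPM. Dividing cells with at least 2 UMIs of Dlx1 and Dlx2 and at most 1 Eomes UMI had 2819 CPM. The sum was higher, at 5127 CPM, in dividing cells with at least 2 Eomes UMIs and at most 1 Dlx UMI. It was 3453 CPM in all cells other than dividing radial glia. Emx1, a dorsal transcription factor, had 106 CPM in dividing radial glia and 26.1 CPM in the dividing Dlx cells. A UMI of Emx1 or Emx2 was held by 192 of 326 dividing radial glia (58.9%). The share was 71.1% in the dividing cells with at least 2 Eomes UMIs and 22.4% in the dividing Dlx cells. The ventral or glial progenitor genes Gsx1, Gsx2, Olig1, Olig2 and Nkx2-1, a set taken after the values were seen, summed to 96.5 CPM, against 220 CPM in radial glia with 0 mitotic UMIs and 390 CPM in the dividing Dlx cells. A UMI of these 5 genes was present in 40 of 326 dividing radial glia (12.3%), 21 of which also held one of Emx1 or Emx2, against 10.2% of radial glia with 0 mitotic UMIs, 2.82% of the dividing cells with at least 2 Eomes UMIs and 50% of the dividing Dlx cells. The share was 18.0% in the first and 4.38% in the second run. The name cortical was therefore not shown for every cell. Markers of excitatory neurons summed to 1587 CPM in dividing radial glia, 1971 CPM in radial glia with 0 mitotic UMIs and 10276 CPM in all cells other than dividing radial glia. Markers of cortical hem and diencephalon summed to 72.9 CPM in dividing radial glia, from 105 UMIs in 68 cells. They had 123 CPM in radial glia with 0 mitotic UMIs, 46.9 CPM in the dividing Eomes cells and 45.7 CPM in the dividing Dlx cells. All cells other than dividing radial glia had 59.4 CPM. The region of the cells with such UMIs was not tested. Mural cell markers had 12.5 CPM, from 18 UMIs, against 7.19 CPM in those other cells. Microglial markers had 2 UMIs in all, with 5 of 7 markers at 0, and endothelial markers 1 UMI, with 4 of 5 at 0.

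Of 580 radial glia by the rule, 326 were dividing, which is 56.2% (52.1 to 60.3%). The share was 57.6% in the first and 54.4% in the second run. Of 929 cells with at least 2 Eomes UMIs and at most 1 Dlx UMI, 15.3% had at least 3 mitotic UMIs. Of 1229 cells with at least 2 Dlx UMIs and at most 1 Eomes UMI, 26.5% did. Markers of excitatory neurons summed to 1833 CPM in the radial glia with under 3 mitotic UMIs, against 7090 CPM in such Eomes cells and 9718 CPM in such Dlx cells, so the denominators differ in neuronal RNA. After each cell was thinned to 1000 UMIs, 61.6% of radial glia kept at least 1 mitotic UMI, against 19.8% of Eomes cells and 32.1% of Dlx cells. The dividing share was nearly equal between the runs for radial glia, but was 21.4% and 8.75% for Eomes cells and 30.3% and 9.59% for Dlx cells in the first and second run.

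The label of the cells reads G2/M, but they were not in 1 phase by their RNA. UMIs of 43 S-phase genes, none of which chose the cells, ranged between 0 and 271 per 10000 UMIs of a cell, with a median of 50.6. UMIs of the 48 other G2/M genes ranged between 21.2 and 334 per 10000, with a median of 121. The 2 measures ran against each other across the 326 cells (Spearman rho -0.44, Pearson r -0.47), as a description only, since both are shares of the same UMIs. Top2a, Mki67 and Ccna2 are known to be made before mitosis as well, and the rule does not require late mitotic RNA, so the cells are called dividing radial glia here and not G2/M cells.

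**Figure D1:**
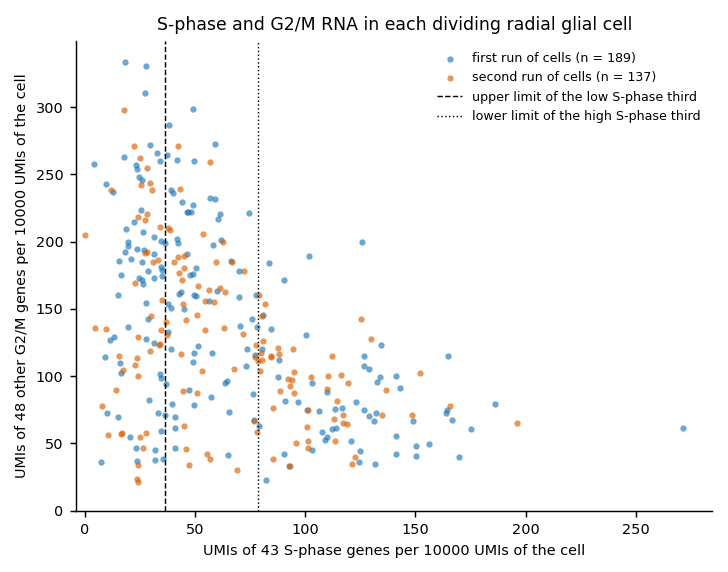
Each point is 1 of the 326 dividing radial glia, with its UMIs of 43 S-phase genes (horizontal) and of 48 other G2/M genes (vertical), both per 10000 UMIs of the cell, coloured by the run of cells. The dashed line at 36.5 and the dotted line at 78.6 bound the 108 cells with the fewest and the 108 cells with the most S-phase UMIs. Cells of both runs lie along the whole range, and every cell above 200 on the vertical axis lies left of the dotted line.

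The 108 cells with the fewest S-phase UMIs (S-poor) were set against the 108 with the most (S-rich), within dividing radial glia. S-poor cells had 36.5 or fewer S-phase UMIs per 10000 and a median of 3750.5 UMIs per cell, and S-rich cells 78.6 or more and a median of 4220 UMIs. Outside the S-phase list, 4571 genes reached 50 UMIs when both groups were added, and of these 10.4% were at least 1.5-fold higher in S-poor cells and 10.7% at least 1.5-fold lower. S-phase genes chose the groups, and all these genes come from the cells that were ranked, so these are descriptions with no test. Of 47 measured other G2/M genes, 32 were at least 1.5-fold higher in S-poor cells and 1 lower, and of 16 measured genes of mitotic kinesins and cytokinesis 10 were higher and 0 lower.

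Among the genes highest in S-poor cells were several that act late in the cycle. Cenpa, the histone H3 variant of centromeres, had 843 CPM in S-poor cells and 95.5 CPM in S-rich cells, an 8.83-fold ratio (6.48 to 12.3, counting error only). Tuba1c, an alpha-tubulin, had 230 CPM against 23.3 CPM (9.87-fold). Cdc20, the activator of the anaphase promoting complex, was 5.22-fold higher, and its partner enzyme Ube2c 4.91-fold higher. Fam64a, Pttg1 (securin, which guards sister cohesion), the spindle pole gene Aspm, Arl6ip1 and Cdc25c, the phosphatase that activates Cdk1, were 4.05-fold to 4.76-fold higher. Each of these ratios lay above 3 in both runs.

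Of the 10 genes lowest in S-poor cells outside the list that ranked them, Tcf19 had 8.69 CPM in S-poor cells and 214 CPM in S-rich cells, 24.6-fold lower (9.33 to 92.2). Lig1, the DNA ligase of lagging strands, was 8.70-fold lower, and the thymidine kinase gene Tk1 was 6.35-fold lower. The helicase subunit Mcm3 was 4.71-fold lower and the maintenance methyltransferase Dnmt1 3.43-fold lower. The single-strand DNA binding gene Rpa1, the histone acetyltransferase gene Hat1, Pole4 and 2810417H13Rik were 3.11-fold to 4.84-fold lower.

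Among the genes of the rule, Top2a did not separate S-poor from S-rich cells, with 1060 and 993 CPM (ratio 1.07, 0.939 to 1.22), while Ccnb1 had 698 and 125 CPM (5.57-fold) and Cenpf 476 and 132 CPM (3.62-fold). Of the radial glia genes of the rule, Fabp7, a fatty acid binding protein, had a ratio of 1.02, and Aldoc, the glial aldolase, had 639 CPM in S-poor and 1283 CPM in S-rich cells. Aldoc was lower in S-poor cells in both runs, with ratios of 0.541 and 0.445. Outside the rule, Pax6 and Sox2, transcription factors that keep radial glia in the stem cell state, had ratios of 1.04 and 1.0. Neurog2, the proneural factor of cortical neurogenesis, had 84.7 CPM in S-poor and 42.4 CPM in S-rich cells, from 39 and 20 UMIs, with ratios of 1.31 in the first and 3.11 in the second run.

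Dividing radial glia were next set against the 137 radial glia with 0 mitotic UMIs. The mitotic genes made this split, so every difference in it describes the split and no test applies. A gene was measured when both classes together gave 50 or more UMIs, and of 7027 such genes 11.8% were at least 1.5-fold higher in dividing radial glia and 9.81% at least 1.5-fold lower, with a median log2 ratio of -0.02 over all measured genes. RNA per cell and the mixture of cycle phases cannot be told apart in such sums. The cells with 0 mitotic UMIs are not all out of the cycle: their S-phase genes still summed to 4481 CPM, against 6361 CPM in dividing radial glia.

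**Figure D2:**
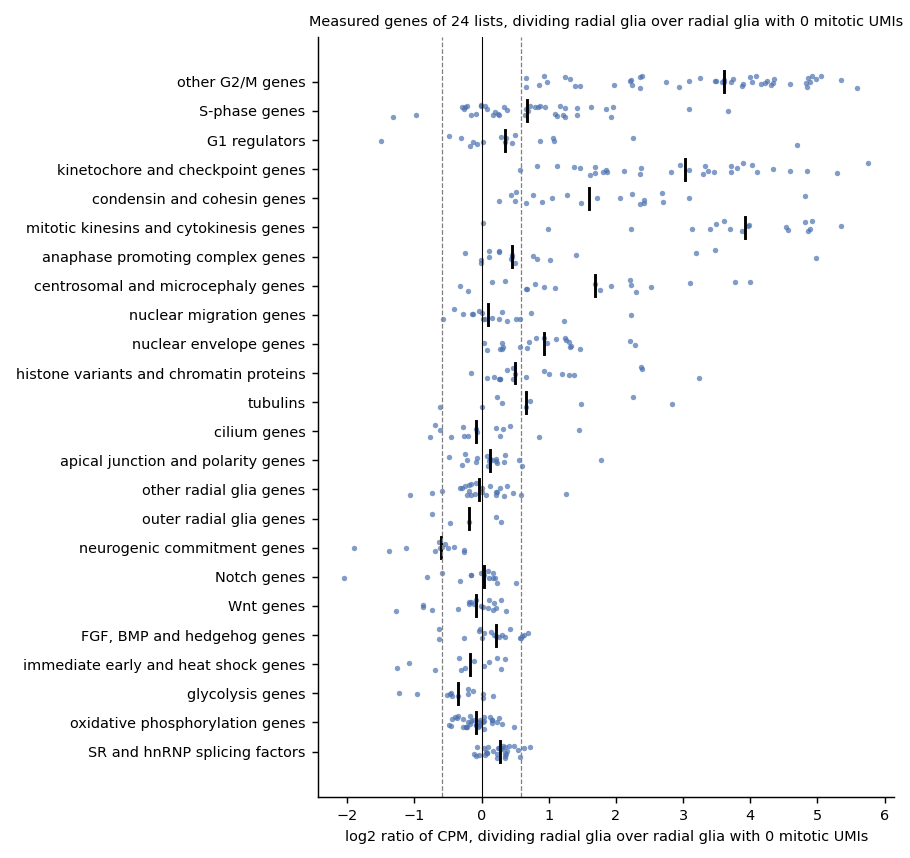
Each point is 1 measured gene, placed by its log2 ratio of CPM in dividing radial glia over radial glia with 0 mitotic UMIs, for 24 gene lists, with the list median as a black bar and 1.5-fold in either direction as dashed lines. All 48 other G2/M genes lie right of the upper dashed line, and the neurogenic commitment genes have the lowest median, at -0.60.

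Mitotic machinery outside the rule ran with the rule genes. The lists overlap, so a gene can count in more than 1, such as Plk1 in the other G2/M and the mitotic kinesin lists. All 48 other G2/M genes were measured and 48 were at least 1.5-fold higher, with a median log2 ratio of 3.61, of which 4 are bounds because the other class had 0 UMIs. Kinetochore and checkpoint genes were higher in 31 of 32 measured (37 listed), mitotic kinesins and cytokinesis genes in 17 of 18 (20 listed), condensin and cohesin genes in 16 of 20 (22 listed) and centrosomal and microcephaly genes in 15 of 19 (24 listed), and 0 genes of these lists were lower. Anaphase promoting complex genes were higher in 7 of 18 (19 listed), with a median of 0.45.

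Spc25, a subunit of the NDC80 complex that ties kinetochores to microtubules, had 256 CPM in dividing radial glia, in 162 cells, and 4.73 CPM in radial glia with 0 mitotic UMIs, in 2 cells (54.1-fold, 14.9 to 448). Plk1, the kinase of mitotic entry and cytokinesis, had 194 CPM and 4.73 CPM (41.0-fold, 11.2 to 340). Ect2, the exchange factor that places the cleavage furrow, had 285 CPM and 9.45 CPM (30.1-fold), in both runs about alike at 29.7-fold and 30.7-fold. The wide intervals come from the 2 to 4 UMIs in the class without mitotic UMIs.

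Ube2c had 674 CPM in dividing radial glia and 21.3 CPM in radial glia with 0 mitotic UMIs (31.7-fold, 16.6 to 69.5). Cdc20 was 11.1-fold higher, and Cdc25c had 114 CPM against 2.36 CPM, from 1 UMI (48.2-fold, 8.53 to 1915). Esco2, the acetyltransferase that locks cohesin in S phase, was 28.2-fold higher (7.70 to 235). Espl1, which encodes separase, had 60.4 CPM and 0 UMIs, at least 8.52-fold higher when the class at 0 is set to 3 UMIs. Sgol2a, the shugoshin that protects centromeric cohesion, had 92.4 CPM in dividing radial glia and 1 UMI in the other class.

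Mutations in several genes of the centrosome and spindle reduce brain size. Aspm, the spindle pole gene most often mutated in primary microcephaly, had 130 CPM and 9.45 CPM (13.7-fold, 5.28 to 50.9), and was 15-fold higher in the first and 12.2-fold in the second run. Tacc3, which stabilises spindle microtubules, was 15.9-fold higher. Nde1, a dynein regulator needed for the nuclear movement and the spindle of radial glia, had 265 CPM and 56.7 CPM (4.66-fold, 3.09 to 7.37). With Nde1 counted, 3 of 18 measured genes of nuclear migration (22 listed) were higher and 0 lower, with a median of 0.10. Dynein heavy chain Dync1h1 had 335 CPM and 336 CPM.

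Gpsm2 encodes LGN, the cortical protein that holds the spindle in the plane of the ventricular surface, and lies at chr3:108678638-108722309 on the minus strand (mm10, GENCODE M21). It had 186 CPM in dividing radial glia and 54.4 CPM in radial glia with 0 mitotic UMIs (3.42-fold, 2.23 to 5.49). In the runs the 2 classes had 204 and 51.7 CPM, and 165 and 57.0 CPM. Dividing Eomes progenitors had 174 CPM and dividing Dlx progenitors 162 CPM, so the 3 dividing classes lay between 162 and 186 CPM. Gpsm2 and Pard6g were the 2 genes higher among 19 measured genes of apical junctions and polarity (24 listed), and 0 were lower. Cdh2, the cadherin of the apical junction belt, had 165 CPM and 173 CPM, and Pard3, a polarity scaffold, 67.4 CPM and 63.8 CPM.

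Chromatin and nuclear envelope genes were higher in part. H2afx, the histone variant phosphorylated at DNA breaks, had 849 CPM in dividing radial glia and 89.8 CPM in radial glia with 0 mitotic UMIs (9.46-fold, 6.85 to 13.4), which was 10.6-fold in the first and 8.54-fold in the second run. Hmgb2, a DNA bending protein of proliferating cells, was 5.22-fold higher and H2afz 2.01-fold. Of 19 measured histone variants and chromatin proteins (22 listed), 9 were higher and 0 lower. Nuclear envelope genes were higher in 14 of 21 (22 listed) and lower in 0, led by the importin Kpna2 (4.85-fold, 1.81 to 18.3) and the Ran activator Rangap1 (4.62-fold), and Lmnb1, a lamin of dividing cells, was 2.40-fold higher.

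Tubulin genes divided by isotype. Tuba1c, Tubb4b, Tuba1b, Tubb5 and Tubg1 were at least 1.5-fold higher, Tuba1c by 7.12-fold (3.54 to 16.7) and Tubb4b by 4.75-fold (3.12 to 7.59). The neuronal Tubb3 was 1.53-fold lower, at 213 CPM and 326 CPM. Tuba1a, the main alpha-tubulin of developing neurons, had 3206 CPM in dividing radial glia and 3179 CPM in radial glia with 0 mitotic UMIs. Tubulin genes are near copies of each other, and how the authors' counting assigned shared reads is not given in the sources used here. Of 15 measured cilium genes (23 listed) 2 were higher and 3 lower.

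S-phase genes were mixed, with 22 of 40 measured (43 listed) at least 1.5-fold higher, 2 lower and a median of 0.67. E2f8, a repressor that closes the S-phase programme, had 90.3 CPM and 7.09 CPM (12.7-fold, 4.26 to 62.5), and Rad51ap1, a recombination factor, 60.4 CPM and 7.09 CPM (8.52-fold, 2.82 to 42.1). Ung, which removes uracil from DNA, had 46.5 CPM in dividing radial glia and 116 CPM in radial glia with 0 mitotic UMIs (2.49-fold lower), and the licensing helicase gene Mcm6 315 and 373 CPM. Of 17 G1 regulators measured (19 listed), 5 were higher and 1 lower. Cdkn2c, which encodes the CDK4/6 inhibitor p18, had 123 CPM and 4.73 CPM (26.0-fold, 7.09 to 216), the related Cdkn2d was 4.75-fold higher, and Cdkn1c, the p57 inhibitor of neurogenic divisions, was 2.84-fold lower. Ccnd2, a cyclin whose mRNA is carried into the basal process, had 565 CPM and 560 CPM.

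Outside all lists the genes with the largest ratios were again of the cell cycle. Mxd3, a Myc antagonist made in cycling cells, had 135 CPM and 2.36 CPM, from 195 and 1 UMIs (57.3-fold, 10.2 to 2274). The centromere gene Cenpl, the mitotic kinase Pbk, the chromosomal passenger Incenp, the scaffold Iqgap3 and cyclin F (Ccnf) had ratios between 14.7 and 35.8. Pbk had 756 UMIs in 248 dividing radial glia and 7 in the other class.

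Other radial glia genes differed little between dividing and mitosis-negative cells. Both classes had to meet the same radial glia, Dlx and Eomes limits, so this likeness follows in part from the rule. Of 26 measured other radial glia genes (27 listed), 1 was at least 1.5-fold higher and 3 lower, with a median log2 ratio of -0.05. Pax6 had 475 CPM in dividing radial glia and 317 CPM in radial glia with 0 mitotic UMIs (1.5-fold, 1.24 to 1.82), and Sox2 755 and 579 CPM (1.30-fold). Veph1 was the gene that was higher, at 2.39-fold (1.37 to 4.51). The 3 lower genes were Ptn, Acsbg1 and Mfge8: Ptn, a secreted growth factor, had 48.6 and 102 CPM (2.09-fold lower, 1.40 to 3.10). Of 13 outer radial glia genes 5 were measured, 1 of which, Acsbg1, was lower and 0 higher. Tnc, an extracellular matrix gene of that list, had 248 and 281 CPM.

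Genes of neuronal commitment were the list with the lowest median. Of 12 measured (20 listed), 7 were at least 1.5-fold lower in dividing radial glia and 0 higher, with a median log2 ratio of -0.60. In the runs it was -0.73 and -0.70. With both classes limited to the same range of UMIs per cell the median was -0.66, and with a radial glia share of at least 0.5% it was -0.24, the value nearest 0 among the alternatives run. Markers of intermediate progenitors, most of which are also in this list, summed to 466 CPM in dividing radial glia and 983 CPM in radial glia with 0 mitotic UMIs. Markers of excitatory neurons summed to 1587 CPM and 1971 CPM, and the part of such cells in this result was not tested.

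Neurog2, at chr3:127633135-127635631 on the plus strand (mm10, GENCODE M21), had 68.0 CPM in dividing radial glia and 253 CPM in radial glia with 0 mitotic UMIs, 3.72-fold lower (2.80 to 4.94). In the first run the levels were 67.5 and 197 CPM and in the second 68.7 and 309 CPM. The radial glia with 1 or 2 mitotic UMIs had 81.7 CPM, closer to the dividing cells. A Neurog2 UMI was present in 48 of 326 dividing radial glia, with at most 11 in 1 cell, and in 34 of 137 radial glia with 0 mitotic UMIs, with at most 15. Hes6, which blocks Hes1 in committed cells, had 70.8 CPM and 184 CPM (2.60-fold lower, 1.91 to 3.53) with ratios of 0.385 and 0.386 in the runs. Btg2, an antiproliferative gene of neurogenic progenitors, had 156 CPM and 343 CPM (2.19-fold lower).

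Among measured Notch genes the ligand Dll1 differed most. Dll1, which is shown on the surface of committing cells, had 22.9 CPM in dividing radial glia and 94.5 CPM in radial glia with 0 mitotic UMIs (4.13-fold lower, 2.54 to 6.75), and was 4.34-fold and 3.89-fold lower in the runs. In the class with 0 mitotic UMIs its 40 UMIs lay in 14 cells. The ligand Jag1 had 37.5 and 37.8 CPM. The receptors Notch1 and Notch2 had 385 and 359 CPM, and 234 and 262 CPM. Hes5, a direct Notch target that keeps radial glia undifferentiated, had 396 and 700 CPM (1.76-fold lower, 1.53 to 2.03), while Hes1 had 444 and 494 CPM. In all, 3 of 15 measured Notch genes (23 listed) were lower and 0 higher, with a median of 0.04.

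Other signalling genes differed in few members. Of 19 measured Wnt genes (24 listed) 4 were lower and 0 higher: Wnt7b, a ligand of neurons and progenitors, was 2.42-fold lower (1.70 to 3.42), by 1.56-fold in the first and 5.24-fold in the second run. Of 19 genes of FGF, BMP and hedgehog signalling (25 listed) 4 were higher and 2 lower. The BMP receptor Bmpr1a was 1.55-fold higher over all cells, yet had a ratio of 3.12 in the first and 0.923 in the second run, so its direction rests on the first run. Egr1, an immediate early gene, had 233 and 558 CPM (2.40-fold lower), with ratios of 0.795 and 0.338 in the runs, and Fos 474 and 1000 CPM, with ratios of 1.05 and 0.384. The difference in Fos thus appeared in the second run and not in the first.

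Metabolic and splicing genes showed small shifts. Of 13 glycolysis genes (18 listed) 2 were lower and 0 higher: hexokinase Hk2 had 31.2 and 73.3 CPM (2.34-fold lower, 1.43 to 3.79) and Aldoa 224 and 435 CPM (1.94-fold lower). Of 35 oxidative phosphorylation genes 0 passed 1.5-fold in either direction. Of 30 SR and hnRNP splicing factors 2 were higher, with Srsf4 at 1.65-fold, and 0 lower. In no list, Apoe, the lipid carrier of glia, had 50 and 149 CPM (2.98-fold lower, 2.09 to 4.24), the PACAP receptor Adcyap1r1 was 2.78-fold lower, and Tmem178, Igdcc4, Cntn2 and Nt5c were 2.22-fold to 2.65-fold lower.

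**Figure D3:**
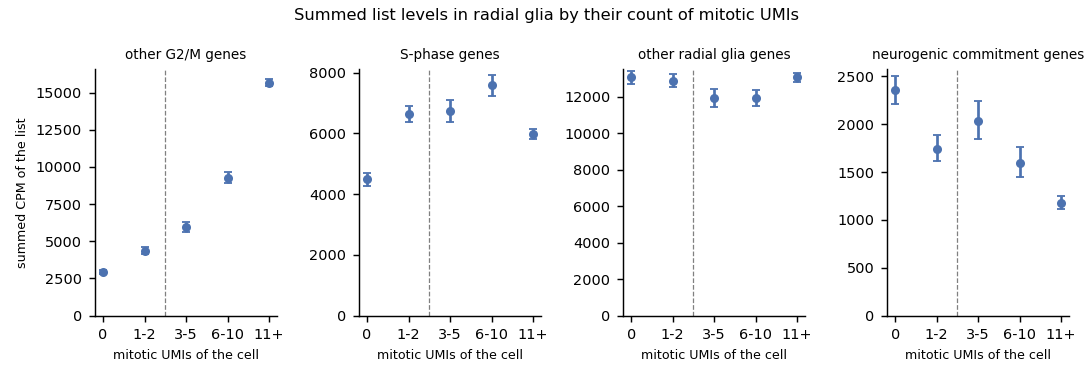
Summed CPM of 4 gene lists in radial glia grouped by the mitotic UMIs of each cell (0, 1 to 2, 3 to 5, 6 to 10, 11 or more, with 137, 117, 60, 66 and 200 cells), with 95% Poisson intervals for counting error; the groups right of the dashed line are dividing radial glia. Other G2/M genes climb over all 5 groups, S-phase genes are highest at 6 to 10 mitotic UMIs, other radial glia genes stay within 11919 to 13062 CPM, and neurogenic commitment genes are lowest in the last group.

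Across radial glia ordered by their mitotic UMIs, other G2/M genes summed to 2928, 4377, 5930, 9284 and 15667 CPM in cells with 0, 1 to 2, 3 to 5, 6 to 10 and 11 or more. These genes track the count that made the groups, and depth moved with it: median UMIs per cell were 2851, 3011, 2904.5, 3623 and 4706. S-phase genes summed to 4481, 6642, 6721, 7577 and 5978 CPM, so the group with the most mitotic UMIs was below the one before it. Neurogenic commitment genes summed to 2354, 1745, 2035, 1598 and 1178 CPM. The cells with 3 to 5 mitotic UMIs were above those with 1 or 2, so that series was not steady.

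Dividing radial glia were then set against 142 dividing Eomes progenitors, cells with at least 2 Eomes UMIs, at most 1 Dlx UMI and at least 3 mitotic UMIs. Both classes meet the same mitotic limit, with medians of 13.5 and 11 mitotic UMIs. They were not matched for cycle phase, depth or run, so the ratios do not show the type of progenitor alone. The runs held 189 and 137 dividing radial glia, against 101 and 40 Eomes cells, so ratios over all cells mix class and run. Eomes and the radial glia genes chose the classes and are not results. Of 7457 genes measured, 14% were at least 1.5-fold higher in dividing radial glia and 11.1% at least 1.5-fold lower. The Eomes class had a median of 4648 UMIs, with 101 cells in the first and 40 in the second run. Of its cells 15.5% were among the 289 cells with the highest doublet score, against 4.29% of dividing radial glia, and without those cells the counts were 1029 higher and 726 lower of 6959.

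**Figure D4:**
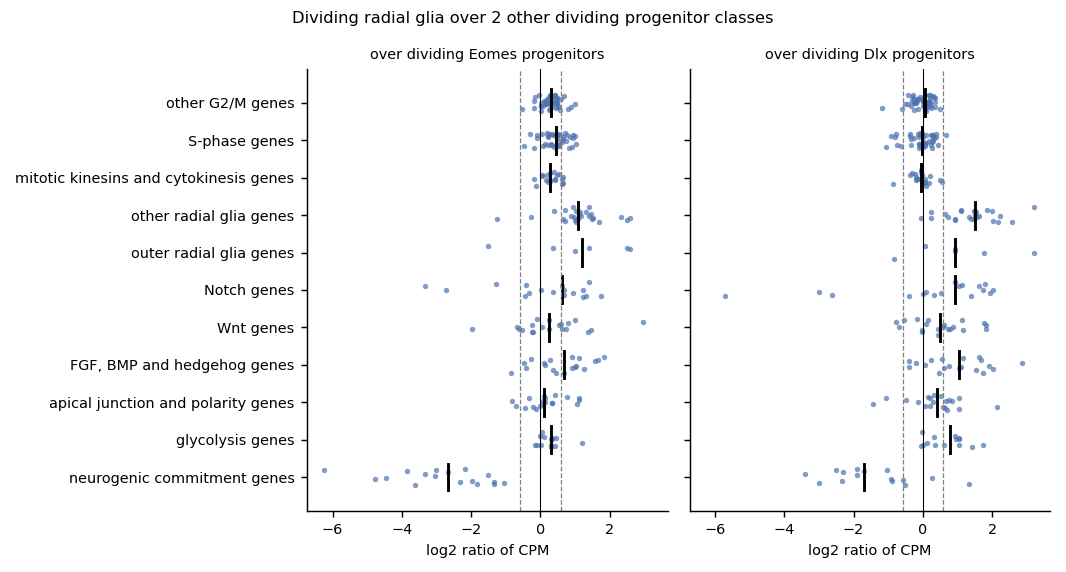
Log2 ratios of CPM in dividing radial glia over dividing Eomes progenitors (left) and over dividing Dlx progenitors (right) for the measured genes of 11 lists, 1 point per gene, with list medians as black bars and 1.5-fold as dashed lines. The other G2/M genes centre at 0.30 and 0.06 and the S-phase genes at 0.46 and -0.03, other radial glia genes centre at 1.10 and 1.49, and neurogenic commitment genes at -2.68 and -1.69.

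Cell cycle lists leaned to dividing radial glia over all cells. In the second run the medians of the mitotic lists were near 0 or below it. The S-phase, G1 and condensin and cohesin lists had a larger share of higher genes than the 14% of all genes. The other G2/M genes had a smaller one. Of 48 other G2/M genes 5 were at least 1.5-fold higher and 0 lower, with a median of 0.30, 0.53 in the first and -0.12 in the second run. S-phase genes were higher in 13 of 40 measured and lower in 0, with a median of 0.46, which was 0.49 and 0.21 in the runs. Condensin and cohesin genes were higher in 6 of 20 and lower in 0, with a median of 0.37, which was 0.44 and 0.11 in the runs. Mitotic kinesins and cytokinesis genes were higher in 4 of 19 and lower in 0. Their median was 0.28, with 0.48 in the first and -0.20 in the second run. Among G1 regulators, E2f5 was 2.39-fold higher (1.79 to 3.25) and cyclin E1 (Ccne1) 2.38-fold (1.23 to 5.06), and 6 of 17 were higher and 3 lower. Cdkn1c, a brake on the cycle, had 20.8 CPM in dividing radial glia and 110 CPM in dividing Eomes progenitors, 5.30-fold lower. Gpsm2, at 186 and 174 CPM, and Plk1, at 194 and 160 CPM, had intervals that include equal levels.

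Other radial glia genes were higher in dividing radial glia, a direction that follows in part from the radial glia genes of the rule, whose median share of UMIs was 0.661% in dividing radial glia and 0.132% in dividing Eomes progenitors. Of 26 measured other radial glia genes 23 were at least 1.5-fold higher and 1 lower, with a median of 1.10. Tnc had 248 CPM in dividing radial glia and 41.4 CPM in dividing Eomes progenitors (5.99-fold, 4.12 to 9.01), with 132 and 26.3 CPM in the first run and 386 and 86.0 CPM in the second. Acsbg1, an acyl-CoA synthetase, was 5.62-fold higher (2.45 to 15.9) and Ptn 5.03-fold. The gene that was lower was Emx1, with 106 and 251 CPM (2.36-fold lower, 1.90 to 2.95), and Lhx2, another dorsal factor, had 774 and 937 CPM. Sox2 had 755 and 367 CPM and Pax6 475 and 291 CPM, so the Eomes class still held both. Of 13 outer radial glia genes 6 were measured, with 4 higher and 1 lower.

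Notch receptors and targets leaned to dividing radial glia and the ligand Dll1 to the Eomes class. Of 17 Notch genes measured 9 were higher and 3 lower. Notch2 had 234 CPM and 69.0 CPM (3.39-fold, 2.51 to 4.66), Notch3 62.5 and 23.5 CPM (2.66-fold), and the ligand Jag1 37.5 and 15.2 CPM (2.47-fold, 1.28 to 5.24). Dll1 had 22.9 CPM in dividing radial glia and 150 CPM in dividing Eomes progenitors (6.56-fold lower). Hes1 was 2.33-fold higher (1.94 to 2.83), whereas Hes5 had 396 and 388 CPM.

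Wnt and growth factor genes were split. Dkk3, a secreted member of the Dickkopf family, had 54.2 and 6.90 CPM (7.85-fold, 3.22 to 24.8), and Tcf7l2, a nuclear effector of Wnt signalling, was 2.77-fold higher, within 8 of 20 Wnt genes higher and 3 lower. Of 19 genes of FGF, BMP and hedgehog signalling 10 were higher and 1 lower. Id3, a BMP target that blocks proneural factors, had 174 and 48.3 CPM (3.61-fold, 2.53 to 5.30), the FGF receptor Fgfr2 217 and 73.1 CPM (2.96-fold), and Spry2, a feedback inhibitor of FGF signalling, 61.8 and 19.3 CPM (3.20-fold, 1.81 to 6.09). Gli3, the hedgehog factor that patterns the dorsal forebrain, had 662 and 308 CPM (2.15-fold).

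All 17 measured genes of neuronal commitment (20 listed) were at least 1.5-fold lower in dividing radial glia, with a median of -2.68. Eomes is not in that list, but it marks cells of this fate, so the direction follows from how the classes were chosen. Neurog1 had 1.39 CPM, from 2 UMIs, and 106 CPM in dividing Eomes progenitors (76.5-fold lower, 20.5 to 643). Neurog2 had 68.0 and 836 CPM (12.3-fold lower, 9.91 to 15.4), and Sstr2, a somatostatin receptor of intermediate progenitors, 3.47 and 95.2 CPM (27.4-fold lower). Tubb3 was 2.87-fold lower.

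Among genes in no list, S1pr1, a receptor for sphingosine 1-phosphate, had 98.6 CPM in dividing radial glia and 15.2 CPM in dividing Eomes progenitors (6.50-fold, 3.52 to 13.3), and each run gave a ratio over 5. Ccdc80, a matrix protein gene, was 5.42-fold higher, the chaperone gene Clu 4.68-fold, the Polycomb gene Pcgf5 4.35-fold and 2810459M11Rik 5.59-fold. Lower were Lrrn3, with 13.2 and 181 CPM (13.7-fold, 8.43 to 23.5), the neurite factor Nrn1 (11.3-fold), the vesicular glutamate transporter Slc17a6 (8.74-fold), Plcxd2, the neuronal factor Myt1 and Igfbpl1 (6.49-fold to 8.43-fold).

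The last comparison set dividing radial glia against 326 dividing Dlx progenitors, cells with at least 2 UMIs of Dlx1 and Dlx2, at most 1 Eomes UMI and at least 3 mitotic UMIs. Of 8174 genes measured, 13.9% were at least 1.5-fold higher in dividing radial glia and 12% at least 1.5-fold lower. The Dlx class had a median of 3659.5 UMIs, and 305 of its cells were in the first and 21 in the second run. Values of the second run therefore rest on 21 cells for that class. Dividing radial glia had 189 and 137 cells in the runs, so ratios over all cells mix the class with the run. All 3 comparisons share the dividing radial glia, so they are not independent of each other.

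Few genes of mitosis and S phase passed 1.5-fold here. Of 48 other G2/M genes 0 were higher and 2 lower (median 0.06), and of 43 S-phase genes 1 was higher and 6 lower (median -0.03). Hjurp, the chaperone that loads the centromeric histone, was 2.29-fold lower (1.61 to 3.30), and Cdca7, a replication-linked gene, 2.09-fold lower. Ccnd2 had 565 CPM in dividing radial glia and 1362 CPM in dividing Dlx progenitors (2.41-fold lower, 2.22 to 2.62), with ratios of 0.401 and 0.345 in the runs. Cdkn1c was 4.49-fold lower.

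Here too the rule chose on radial glia genes. Of 26 other radial glia genes 23 were at least 1.5-fold higher and 0 lower, with a median of 1.49. Tnc had 248 and 26.8 CPM (9.24-fold, 6.58 to 13.3) and Bcan, a proteoglycan gene, 137 and 23.2 CPM (5.93-fold, 4.06 to 8.90). In dividing radial glia Tnc was higher in the second run than in the first, as given above. The Dlx class lay mostly in the first run, so the size of the Tnc ratio depends in part on the runs. Among outer radial glia genes, the secreted Wnt inhibitor Sfrp1 had 1091 and 323 CPM (3.37-fold, 3.03 to 3.76). Sox2 had 755 and 792 CPM, and the interval of the ratio (0.876 to 1.04) includes equal levels. Pax6 was 2.86-fold higher. Outer radial glia genes were higher in 4 and lower in 1 of 6 measured.

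Notch genes were higher in 9 and lower in 3 of 17 measured. Hes1 had 444 CPM in dividing radial glia and 109 CPM in dividing Dlx progenitors (4.09-fold, 3.42 to 4.91), and Hey1, another Notch target, 136 and 35.5 CPM (3.83-fold). Notch2 was 3.43-fold higher, with 3.36-fold in both runs. Dll1 was 6.11-fold lower, and Dll3, a ligand-like inhibitor of Notch, had 2 UMIs in dividing radial glia and 100 in dividing Dlx progenitors (52.2-fold lower, 14.1 to 437).

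Of 19 genes of FGF, BMP and hedgehog signalling 12 were higher and 0 lower, with a median of 1.04. Id3 had 174 and 23.9 CPM (7.28-fold, 5.05 to 10.8) and Id1 156 and 38.4 CPM (4.07-fold). Fgfr3, an FGF receptor graded across the cortex, had 287 and 85.6 CPM (3.36-fold). Wnt genes were higher in 9 and lower in 2 of 20, with Dkk3 at 3.56-fold and Tcf7l1, a repressor in Wnt signalling, at 3.52-fold.

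Some apical and glycolysis genes were higher, while of 35 oxidative phosphorylation genes 0 passed 1.5-fold in either direction. Crb2, the Crumbs protein of the apical membrane, had 54.2 CPM in dividing radial glia and 12.3 CPM in dividing Dlx progenitors (4.39-fold, 2.58 to 7.92), and its partner Mpp5 71.5 and 34.8 CPM (2.05-fold), among 8 of 20 apical genes higher and 2 lower. Of 14 glycolysis genes 8 were higher and 0 lower, with the glucose transporter Slc2a1 at 3.34-fold (2.19 to 5.23) and Pgk1 at 2.66-fold. Pgk1 had a ratio of 3.18 in the first and 0.977 in the second run. Fos was 4.06-fold higher and Fosb 4.04-fold, among 6 immediate early and heat shock genes higher and 1 lower of 12, and the ratio of Fos was 2.67 in the first and 18.1 in the second run, from 3 UMIs in the Dlx class.

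Neuronal commitment genes were lower in 11 and higher in 1 of 15 measured, with a median of -1.69. Gadd45g, a stress and differentiation gene, had 11.1 and 118 CPM (10.6-fold lower, 6.36 to 19.1), and Mfng, a Notch-modifying glycosyltransferase, 18.7 and 149 CPM (7.97-fold lower). The gene that was higher was Neurog2, with 68.0 CPM in dividing radial glia and 26.8 CPM in dividing Dlx progenitors (2.54-fold, 1.72 to 3.81). Tubb3 was 5.03-fold lower.

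In no list, Ccdc80 had 135 and 10.2 CPM (13.3-fold, 7.72 to 24.7), and the lysophosphatidic acid receptor Lpar1, the folate enzyme Aldh1l1, Ltbp1, Plce1 and Tmem132b were 7.16-fold to 8.57-fold higher. Ltbp1 binds latent TGF-beta in the matrix. Genes of the ventral programme were lower, a direction that follows in part from the Dlx limits that chose the classes. Sp9 was 48.9-fold lower (28.9 to 89.9) and Slc18a2, a vesicular monoamine transporter, 28.6-fold lower. Dlx1as, Dlx6os1 and Dlx5 were 24.2-fold to 39.7-fold lower. They overlap or lie opposite Dlx genes, and without a stated strand rule reads of these partners cannot be told apart. Ttr, the choroid plexus transthyretin, was 19.7-fold lower, but 590 of the 641 UMIs in the Dlx class lay in 1 cell.

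Hmga2, an architectural chromatin protein that declines in neural stem cells with age, was higher in dividing radial glia in each comparison over all cells. It had 73.6 CPM, against 28.4 CPM in radial glia with 0 mitotic UMIs, 35.9 CPM in dividing Eomes progenitors (2.05-fold, 1.33 to 3.28) and 23.9 CPM in dividing Dlx progenitors (3.08-fold, 2.06 to 4.70). In dividing radial glia it had 111 CPM in the first and 29.0 CPM in the second run. The ratio over the Dlx class was 4.63 in the first and 1.21 in the second run, so that comparison rests on the first run. Ratios by run are not given here for radial glia with 0 mitotic UMIs and dividing Eomes progenitors. Whether those differences hold in both runs is therefore not shown.

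**Figure D5:**
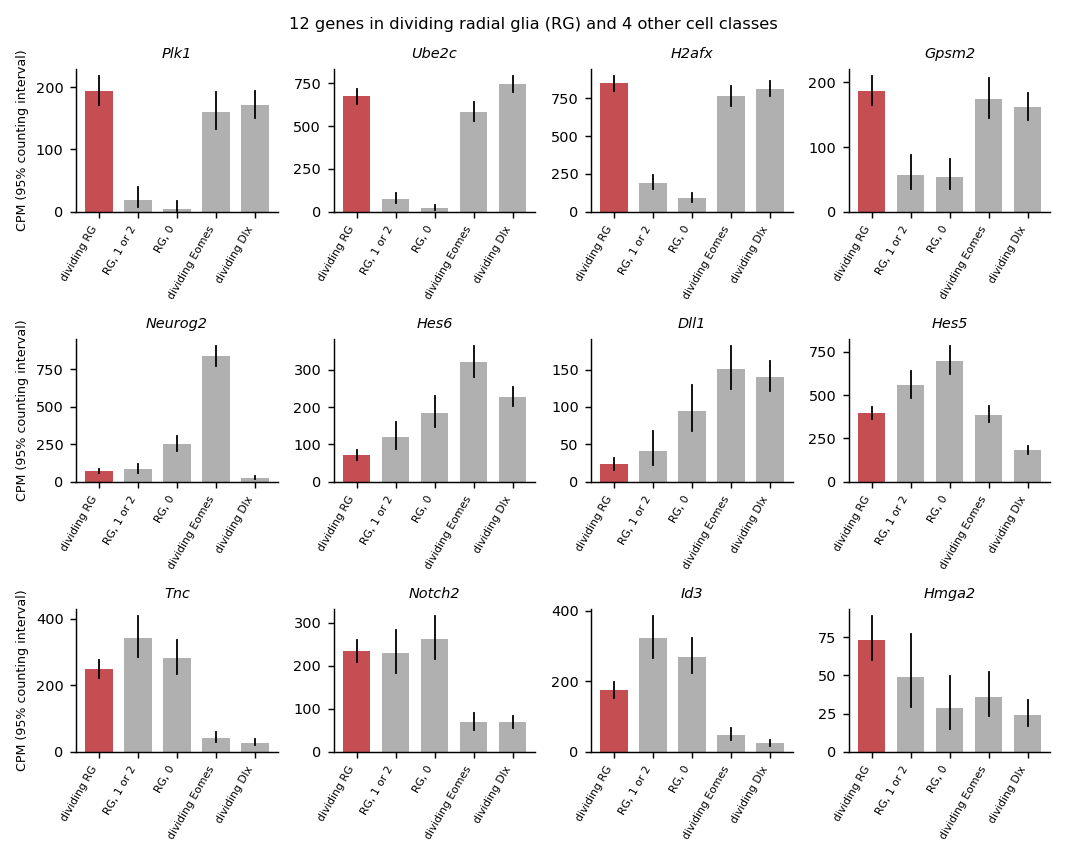
CPM of 12 genes in dividing radial glia (red, left), radial glia with 1 or 2 and with 0 mitotic UMIs, dividing Eomes progenitors and dividing Dlx progenitors, with 95% Poisson intervals for counting error as lines. Plk1, Ube2c, H2afx and Gpsm2 are high in the 3 dividing classes, while Tnc, Notch2 and Id3 are high in the 3 radial glia classes.

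The plot of 12 genes by class shows several patterns. Ube2c was high in all 3 dividing classes, with 674 CPM in dividing radial glia, 585 CPM in dividing Eomes progenitors and 746 CPM in dividing Dlx progenitors. Notch2 was high in all 3 radial glia classes, with 234, 229 and 262 CPM in the 3 radial glia classes with at least 3, with 1 or 2 and with 0 mitotic UMIs. Neurog2, Hes6 and Dll1 were lowest of the radial glia classes in the dividing cells. Neurog2 alone of these 3 was lower still in dividing Dlx progenitors, at 26.8 CPM.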

How the data were processed

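The deposited file holds raw counts, which are whole UMI numbers per gene and cell with no normalization. The build was mm10, per the submitters' processing notes, and the droplet workflow is per the labels' protocols. Which aligner, counter, strand rule and annotation were used is not given in the sources used here. This matrix has 14498 genes, each in at least 5 cells, 5777 cells, 0 mitochondrial genes and no cell under 1111 UMIs. The 16 samples share 1 matrix whose cell names carry no sample, so they count as 1 sample with no replicate and no p-value is given.

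UMIs were summed over the cells of a class and scaled to its total (CPM). Ratios carry exact conditional binomial 95% intervals and levels exact Poisson intervals; shares carry Clopper-Pearson intervals. All cover counting error only. Genes needed 50 UMIs over both classes, the size limit was 1.5-fold, and a class with 0 UMIs was set to 3 UMIs, which gives a lower bound. Thinning used 1000 UMIs per cell, and 0 cells were shallower. Doublets were kept: a score, the share of simulated doublets among 40 neighbours in 30 principal components of 2000 variable genes, served an alternative that leaves out 289 cells. The ratio script was tested on simulated counts.

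The cells and the 24 gene lists were chosen with earlier results of these data known. Some genes are in more than 1 list, such as Tnc and Acsbg1 in both radial glia lists. Named genes are, per list with at least 1 in 3 measured genes past 1.5-fold in a direction, the 2 with the largest ratio whose interval excludes 1, the 1 largest of other lists, and of genes in no list the 6 largest in each direction with at least 100 UMIs and an interval beyond 1.5-fold; rule, marker and S-phase ranking genes are named as well. A few genes that meet this rule are not reported here. Other genes named as examples of their list were chosen after their values were seen. Gene positions are from GENCODE M21. Tools were Python 3.11.15, numpy 2.4.6, scipy 1.17.1, pandas 2.3.3, scikit-learn 1.9.0 and matplotlib 3.10.9.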

Additional observations from a re-analysis of the deposited data

How the results depend on the processing

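The 3 class comparisons, the cell count and the dividing share were recomputed under other limits of the rule, gene minimums, size limits, weights, depth ranges, scalings and runs, without high doublet scores and, chosen after seeing the data, without radial glia holding UMIs of ventral progenitor genes. The share of radial glia that were dividing (56.2%) was 64.0% with a minimum of 2 mitotic UMIs, 48.6% with 5, 61.6% with 1 UMI after thinning to 1000 UMIs and 51.2% after thinning to 500. Genes past 1.5-fold against radial glia with 0 mitotic UMIs (1518) numbered 3305 with a gene minimum of 10 UMIs, 243 with 200, and 480 past 2-fold; 54.6% of them were higher in dividing radial glia, against 74.9% with 200 UMIs and 74.2% past 2-fold. Against dividing Eomes progenitors (1871) they numbered 3548, 502 and 660 under those 3 settings and 1229 in the second run alone. Against dividing Dlx progenitors (2118) they numbered 3704, 675 and 904; the higher share was 53.5% and in the second run alone 63.5%, where the median log2 ratio of all genes was 0.12. These 3 settings change which genes are tested or called by construction. The Bmpr1a log2 ratio was -0.12 in the second run alone; the cause was not tested. Counts stayed within 1.5 times, or the share within its 95% interval, in 52 of 66 values; 1055 of 1078 list medians stayed between the median interval bounds of their genes and 1721 of 1806 single genes within their 95% interval. Most list medians that moved were of outer radial glia genes or of the second run alone, and the second run alone moved the most single genes. Among named genes with UMIs in both runs, the ratios of the runs were often over 1.5 times apart. Against radial glia with 0 mitotic UMIs this held for 24 of 46 genes, and against dividing Eomes progenitors for 16 of 40. Against dividing Dlx progenitors it held for 20 of 36. The direction was the same in both runs for 45, 40 and 33 of these genes. The comparison of S-poor and S-rich cells was recomputed only by run. Low counts limit the smallest levels, where 1 to 4 UMIs set a ratio. No paired analysis was possible because the matrix does not say which cells came from which sample.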

Other observations

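Cell cycle inhibitors differed in direction. Cdkn2c and Cdkn2d, inhibitors of the CDK4 and CDK6 kinases, had 123 and 67.4 CPM in dividing radial glia and 4.73 and 14.2 CPM in radial glia with 0 mitotic UMIs, where they rest on 2 and 6 UMIs. Of the CIP/KIP family, Cdkn1b had a ratio of 1.37 and Cdkn1c was 2.84-fold lower. Within dividing radial glia, genes of neuronal commitment were at least 1.5-fold higher in S-poor cells in 5 of 10 measured and lower in 0, whereas against radial glia with 0 mitotic UMIs the list was lower. Markers of oligodendrocyte precursors had 27 UMIs in 5 dividing radial glia and 28 UMIs in 4 radial glia with 0 mitotic UMIs.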
